A study of Homo sapiens with 3 samples.

Results

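The genes described here are 39 ligands, receptors, antagonists and early target genes of the BMP and TGF-beta pathways, followed through 3 ages of chambered cardiac organoids (CCOs). They were taken by name from the 32738 genes of the deposited table of unique molecular identifier (UMI) counts, with earlier results of these data known. The list holds 11 BMP and GDF ligands, 5 activin and Nodal ligands and Nodal inhibitors, 3 TGF-beta ligands, 5 type I receptors, 4 type II receptors, 1 co-receptor, 7 antagonists and 3 target genes.

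Ligands of this family are secreted as dimers that bring type II and type I serine/threonine kinase receptors together. The type I receptor then phosphorylates SMAD proteins, where BMPs act mainly through SMAD1, SMAD5 and SMAD9 and activins, Nodal and TGF-betas mainly through SMAD2 and SMAD3. Secreted antagonists such as Noggin and Follistatin bind the ligands outside the cell, and the ID genes are among the best known direct targets of BMP signalling. In the developing heart, BMPs of the myocardium take part in myocardial specification and in the formation of valve cushions, and TGF-betas in the formation of fibroblasts and cushion mesenchyme.

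CCOs were grown from H7, a line of human embryonic stem cells, by activating Wnt signalling with CHIR99021 and then blocking it with IWP-2, and the differentiating cells were then aggregated in Matrigel. All 3 libraries share this origin, and no untreated or other control library was analysed here. The D8 and D14 CCOs had been kept in cardiosphere growing medium (CGM), which contained Wnt-3A and endothelin, and the D21 CCOs had in addition spent a week in RPMI/B27 in a spinner flask. Organoids were dissociated with TrypLE, and 1 Chromium library was sequenced per day, so the age and the library cannot be told apart. For D21 the change of medium and the spinner flask cannot be told apart from these either.

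With 1 library per day there is no replicate error and no test between days. Levels are the UMIs of a gene summed over the cells of a group, scaled to the same total in every group (CPM), each followed by its exact Poisson 95% interval, and these intervals cover counting error only. The kept cells numbered 2657, 3585 and 1946 for D8, D14 and D21, and their median depths were 15316, 12282 and 14106 UMIs per cell, from 30898727 to 50247286 UMIs per day. The libraries of D8 and D14 shared 25 barcodes, those of D14 and D21 59 and those of D8 and D21 52. Clusters were made without the 39 genes and were called "X-like" by 3 or more listed markers, so the groups may differ from those of the study. Cardiomyocyte-like (CM-like) cells numbered 493, 1161 and 542, and the summed level of 8 cardiomyocyte markers in them was 7073, 20980 and 54430 CPM. The 5 clusters without a name are called by their number. These were cluster 1 and cluster 13 of D8, with TSHZ2 and NMB among their leading genes, cluster 2 and cluster 11 of D14, with MFAP4 and EBF2 among theirs, and cluster 16 of D21, with MYL2. The surface ectoderm-like cluster passed 6 of 8 surface ectoderm markers and also 4 early mesoderm markers, and SFRP2 and POU5F1 led its genes. At D8 the early mesoderm markers summed to 1244 CPM in it and the surface ectoderm markers to 372.6 CPM. Its name thus rests on the number of markers passed, and it should not be read as surface ectoderm alone. The endothelial-like cells were few, with 47, 53 and 37 cells.

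Of the 39 genes, 32 reached 10 CPM with at least 10 UMIs in 1 or more of the 19 groups of at least 50 cells. These were 8 of 11 BMP and GDF ligands, 2 of 5 genes of the activin and Nodal set, all 3 TGF-beta ligands, 4 of 5 type I receptors, all 4 type II receptors, TGFBR3, all 7 antagonists and all 3 ID genes. The 7 that did not pass were BMP6, BMP10, GDF3, INHBB, NODAL, LEFTY1 and BMPR1B. In CM-like cells, 19 of the genes were at that level at D8, 23 at D14 and 17 at D21. The share of all genes at that level was not counted, so these counts do not set the members apart from other genes. The group with the most of the 39 at that level was cluster 2 of D14, with 25. The fewest, 9, were in the small endothelial-like group of D21. That group held only 569290 UMIs, so the 10 UMIs asked for were a stricter limit there than 10 CPM. BMP4 and ACVR2B, both at 14.05 CPM, and BMP5, at 10.54 CPM, were not counted in it for this reason. The counts of groups of unlike size thus should not be ranked.

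**Figure D1:**
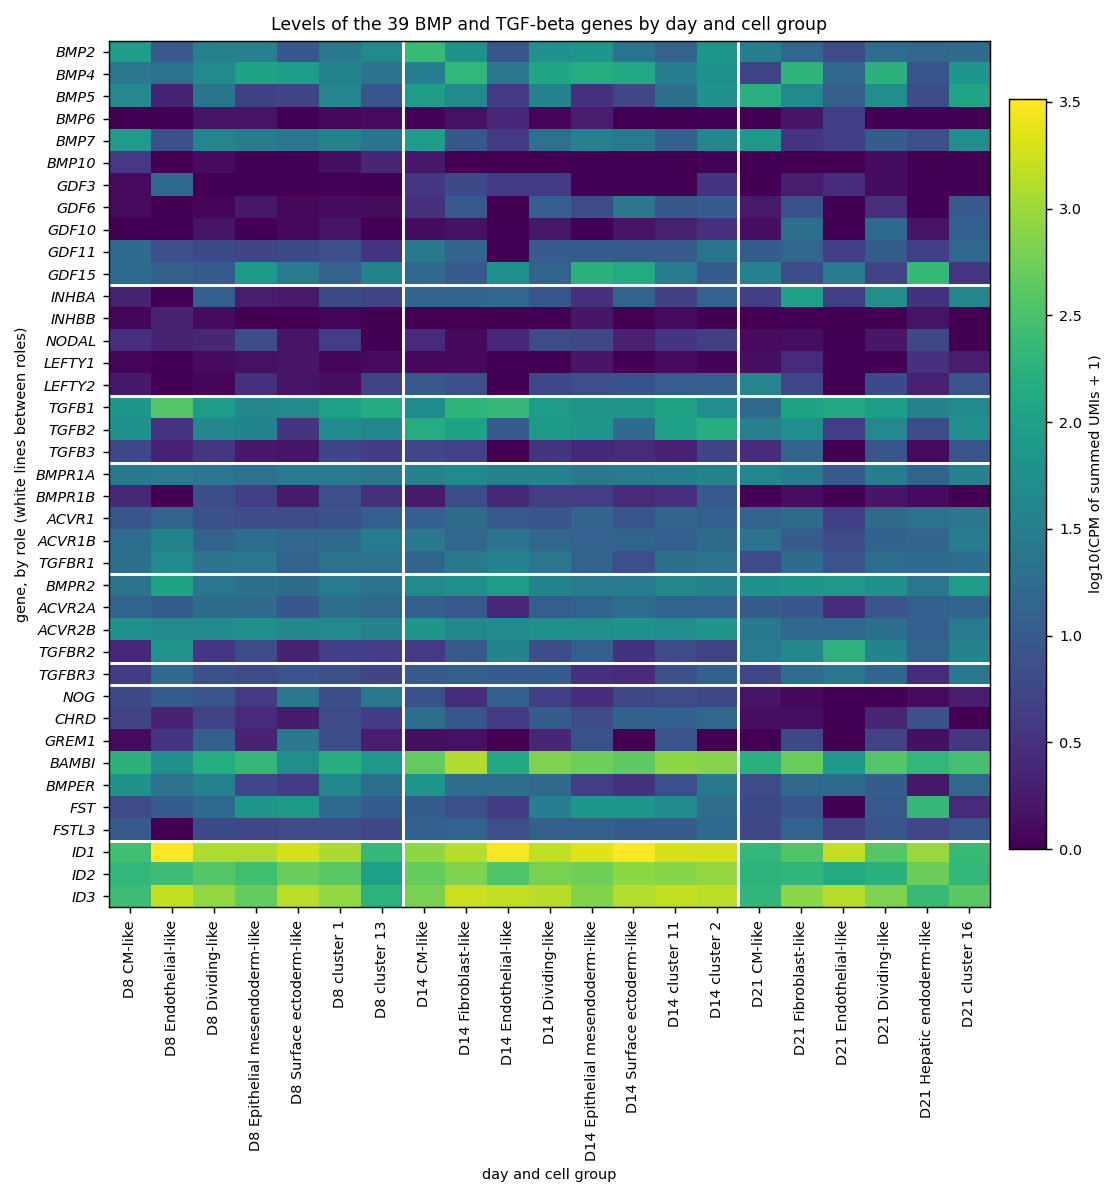
Heat map of the 39 genes (rows, by role) in each day and cell group of 37 or more cells (columns), coloured by the log10 of CPM + 1. Rows should not be ranked against each other. BMP2, BMP5, BMP7 and BMPER were highest in CM-like columns on at least 1 day, TGFB1 and TGFBR2 in endothelial-like columns, and the ID rows were higher at D14 than at D21 in most columns.

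The BMP ligands divided by sender. BMP2, a ligand made by myocardium next to forming valves, was highest in CM-like cells on every day, with 89.6 CPM (83.2 to 96.4) at D8, 231 CPM (223 to 238) at D14 and 30.9 CPM (27.0 to 35.2) at D21. CM-like cells were 32.4% of the D14 cells and held 64.0% of the BMP2 UMIs of that day. The next highest groups of D14 were cluster 2 with 70.6 CPM (65.7 to 75.9) and epithelial mesendoderm-like cells with 70.0 CPM (62.7 to 77.9), which did not differ beyond their intervals. When each cell was thinned to 4000 UMIs, BMP2 was found in 49.6% (46.7 to 52.5) of CM-like cells at D14 (73.9% before thinning). The group with the lowest share on that day, cluster 11, had 3.41% (1.65 to 6.19) (10.9% before thinning), at median depths of 12150 and 11593 UMIs. At D21 the thinned share in CM-like cells was 7.93% (5.80 to 10.5) (17.9% before thinning). The lowest share of that day, in fibroblast-like cells, was 4.85% with an upper limit of 6.55% (14.2% before thinning), and the 2 intervals overlapped.

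BMP5 and BMP7, close relatives that are both made by early myocardium, were also highest in CM-like cells on every day. BMP5 was at 43.9 CPM (39.5 to 48.8), 82.8 CPM (78.3 to 87.5) and 169 CPM (159.5 to 179) in CM-like cells of D8, D14 and D21. At D8 cluster 1, with 38.5 CPM (35.4 to 41.7), was next and its interval overlapped that of CM-like cells, and at D21 cluster 16 was next with 110.3 CPM (92.0 to 131). In the hepatic endoderm-like cells of D21, BMP5 was at 5.86 CPM (4.26 to 7.86), or 3.47% of its CM-like level. The 8 cardiomyocyte markers reached 4.07% of their CM-like level in the same cells, and whether BMP5 was background there was not tested. The fibroblast-like cells of D21 had 44.7 CPM (40.8 to 48.8), or 26.5% of the CM-like level, where the cardiomyocyte markers reached 5.32%.

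BMP7 was at 84.3 CPM (78.1 to 90.9), 93.6 CPM (88.8 to 98.5) and 76.5 CPM (70.3 to 83.1) in CM-like cells. Summed over all other cells it was at 32.1, 25.8 and 7.16 CPM, lowest at D21. Fibroblast-like cells had 8.33 CPM (5.92 to 11.4) at D14 and 2.50 CPM (1.66 to 3.62) at D21, and the latter was 3.27% of the CM-like level, below the 5.32% of the cardiomyocyte markers. The CM-like share of all BMP7 UMIs was 35.3% in the D8 library, 61.3% in that of D14 and 76.8% in that of D21, while their share of the cells was 18.6%, 32.4% and 27.9%.

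BMP4, which patterns mesoderm early and is later made by cardiac mesenchyme, was highest in groups other than CM-like cells on every day. At D8 it was highest in epithelial mesendoderm-like cells with 104 CPM (96.5 to 112) and surface ectoderm-like cells with 92.8 CPM (84.6 to 102), whose intervals overlapped. At D14 it was highest in fibroblast-like cells, with 208 CPM (195 to 221), and at D21 they led again with 191 CPM (183 to 199). CM-like cells had 23.3 CPM (20.1 to 26.9) at D8, 32.2 CPM (29.4 to 35.1) at D14 and 4.24 CPM (2.88 to 6.02) at D21, the last from 31 UMIs. They were the lowest group only at D21. Endothelial-like cells had 19.6 CPM at D8 and 23.4 CPM at D14, cluster 13 of D8 had 21.2 CPM and cluster 11 of D14 had 31.1 CPM. BMP4 was found in 34.1% (30.9 to 37.5) of thinned fibroblast-like cells and in 1.11% (0.407 to 2.39) of CM-like cells of D21 (49.0% and 5.17% before thinning). The dividing cells had 46.4 CPM (41.5 to 51.7), 118 CPM (110.4 to 125) and 180.3 CPM (166 to 196) at D8, D14 and D21. At D21 these dividing cells held the 8 fibroblast markers at 5242 CPM in sum, against 7106 CPM in fibroblast-like cells, and the part of this in their BMP4 level was not tested.

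**Figure D2:**
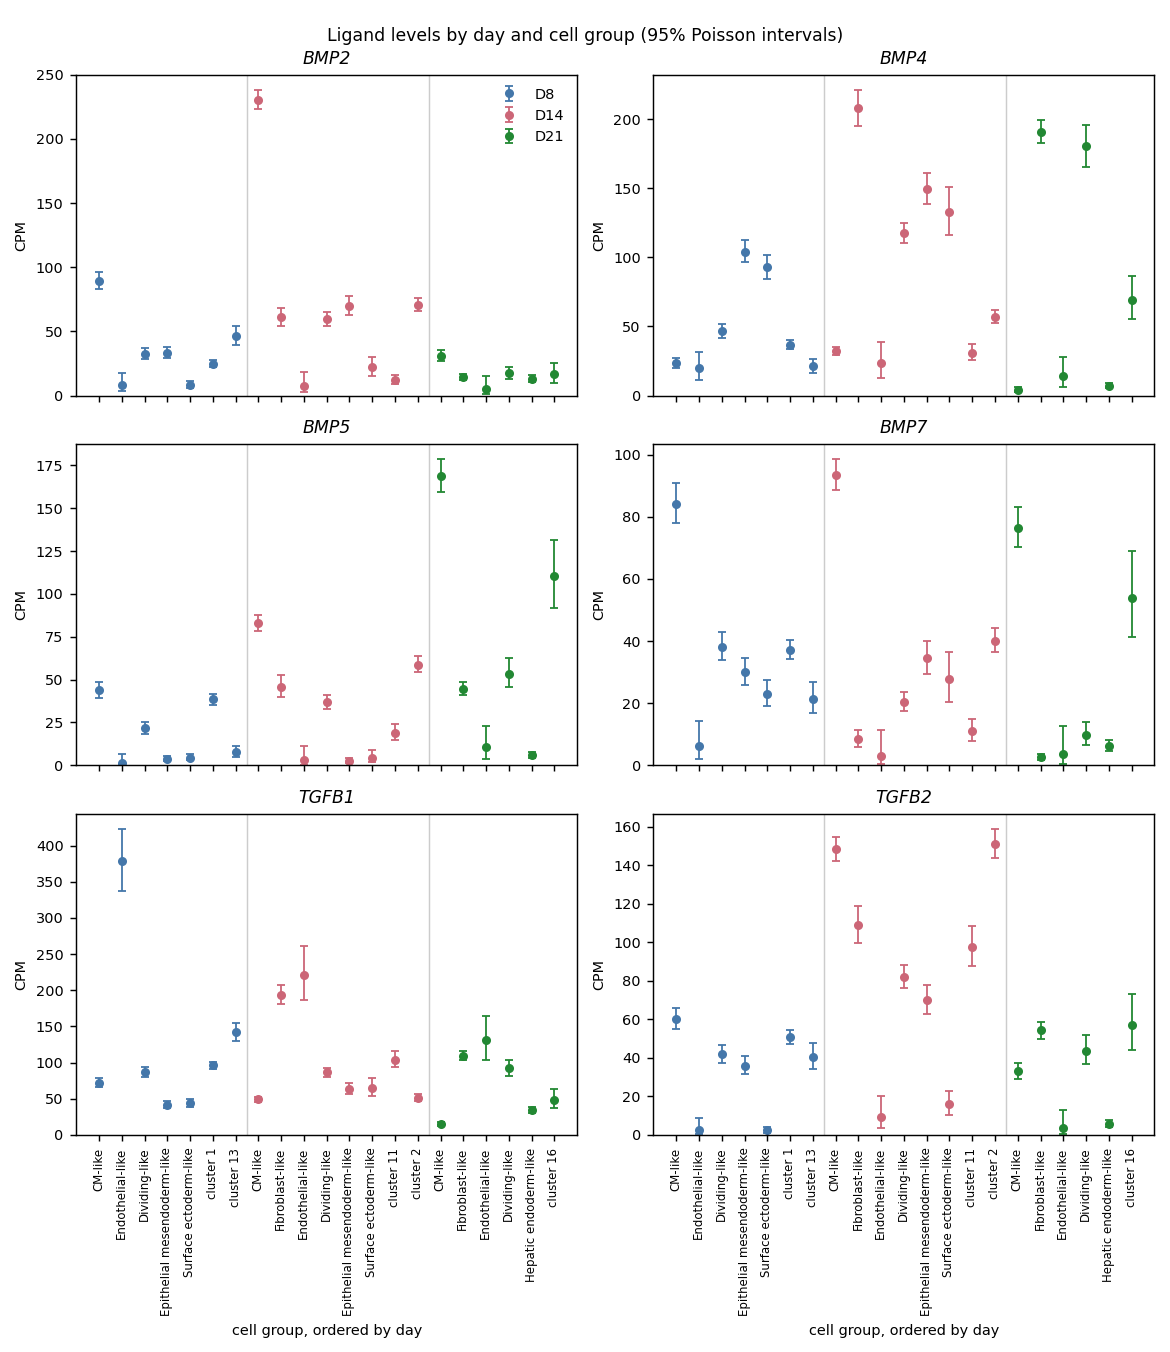
Levels (CPM, linear axis from 0) of 6 ligands in each cell group, ordered by day and coloured by day, with 95% Poisson intervals as bars. CM-like cells stand above the other groups for BMP2 at D14 (231 CPM), BMP5 at D21 (169 CPM) and BMP7 on each day, fibroblast-like cells for BMP4 at D14 (208 CPM), and endothelial-like cells for TGFB1 at D8 (379 CPM).

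Among the GDF ligands, GDF15 had the clearest leading group at D21. GDF15, a distant member that is induced by cell stress, was highest in endoderm, with 80.8 CPM (74.1 to 87.9) and 179 CPM (167 to 191) in epithelial mesendoderm-like cells of D8 and D14 and 225 CPM (214 to 236) in hepatic endoderm-like cells of D21. At D14 surface ectoderm-like cells were next with 139.5 CPM, and endothelial-like cells had 62.3 CPM. Hepatic endoderm-like cells were 15.7% of the D21 cells and held 80.3% of the GDF15 UMIs of that day. In CM-like cells of D21, GDF15 was at 34.2 CPM (30.1 to 38.7), or 15.2% of the hepatic endoderm-like level, while the 8 hepatic markers reached 2.65% there. GDF11, a relative of myostatin, was highest in CM-like cells at D8 with 15.9 CPM (13.3 to 18.9) and at D14 with 25.4 CPM (22.9 to 28.0), where cluster 2 was next with 22.2 CPM (19.5 to 25.2). It was at 9.71 CPM (7.59 to 12.3) in CM-like and 13.4 CPM (11.3 to 15.7) in fibroblast-like cells of D21. GDF10, also called BMP3B, had 2 UMIs in fibroblast-like cells of D14 and 17.5 CPM (15.1 to 20.1) at D21. GDF6, a BMP of skeletal and eye development, was highest in surface ectoderm-like cells of D14, with 23.7 CPM (17.1 to 32.1), but only 42 of its 354 UMIs of that day were in them.

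BMP10, GDF3 and BMP6 were the ligands of this set that did not pass. BMP10, made by trabecular and atrial myocardium in the heart, had 23 of its 36 UMIs of D8 in CM-like cells, where its level was 2.86 CPM (1.81 to 4.28). It had 11 UMIs in CM-like cells of D14 and 0 in those of D21, which allows up to 0.411 CPM. GDF3, a ligand of pluripotent cells, had 13 of its 16 UMIs of D8 in the 47 endothelial-like cells, a level of 15.9 CPM (8.49 to 27.3). It was at 2.39 CPM (1.98 to 2.86) over all cells of D14. BMP6 had 9 to 12 UMIs on each day.

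The TGF-beta ligands differed among themselves in their senders. TGFB1, the main isoform of endothelium and blood, was highest in endothelial-like cells on every day, with 379 CPM (338 to 424), 221 CPM (186 to 261) and 132 CPM (104 to 165). Fibroblast-like cells followed, with 194 CPM (182 to 207) at D14 and 109 CPM (103 to 116) at D21, and their intervals overlapped with those of endothelial-like cells. CM-like cells had 71.9 CPM (66.1 to 78.0), 49.4 CPM (45.9 to 53.0) and 15.1 CPM (12.4 to 18.1), and were the lowest group of D21. After thinning, TGFB1 was found in 72.3% (57.4 to 84.4) of endothelial-like cells of D8 and in 5.90% (4.07 to 8.23) of CM-like cells of D21 (97.9% and 17% before thinning).

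TGFB2, the isoform of cushion myocardium and mesenchyme, was below 10 CPM in endothelial-like cells, with 2.45 CPM (0.297 to 8.86), 9.34 CPM (3.43 to 20.3) and 3.51 CPM (0.426 to 12.7). It was also low in surface ectoderm-like cells of D8, with 2.34 CPM, and in hepatic endoderm-like cells of D21, with 5.59 CPM. At D14 it was highest in cluster 2 with 151 CPM (144 to 159) and CM-like cells with 148 CPM (142 to 155), which did not differ beyond their intervals. CM-like cells had 60.2 CPM (55.0 to 65.8) at D8 and 33.0 CPM (28.9 to 37.4) at D21. TGFB3, found in mesenchyme of the later heart, passed 10 CPM only in fibroblast-like cells of D21, with 12.9 CPM (10.9 to 15.2) against 3.84 CPM (2.28 to 6.08) at D14.

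In the activin and Nodal set, INHBA and LEFTY2 each had 1 leading group at D21. INHBA, which encodes the subunit of activin A, was at 13.0 CPM (9.97 to 16.7) in fibroblast-like cells of D14, next to 14.0 CPM (6.41 to 26.6) in endothelial-like cells, and at 101 CPM (95.2 to 107) in fibroblast-like cells of D21. These cells held 79.1% of the INHBA UMIs of D21 and were 42.3% of the cells. The dividing cells of D21, which held fibroblast markers as given above, had 53.5 CPM (45.6 to 62.3). In CM-like cells INHBA was at 1.12 CPM (0.511 to 2.12), 12.0 CPM (10.4 to 13.9) and 3.42 CPM (2.21 to 5.05). The thinned share of cells with INHBA at D21 was 23.3% (20.5 to 26.3) in fibroblast-like cells and 0.923% (0.300 to 2.14) in CM-like cells (45.6% and 4.06% before thinning).

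LEFTY2, a secreted inhibitor of Nodal, was at 0.745 CPM (0.273 to 1.62) in CM-like cells of D8, 8.76 CPM (7.34 to 10.4) in those of D14 and 38.7 CPM (34.3 to 43.5) in those of D21. At D14 it ranged from 4.68 CPM in dividing cells to 11.1 CPM in cluster 2, and none of its UMIs was in the 53 endothelial-like cells. At D21 the next highest group, cluster 16, had 6.95 CPM (3.0 to 13.7). LEFTY1, its neighbour in the genome and close relative, stayed at or below 2.13 CPM in every group. NODAL reached at most 5.72 CPM (4.05 to 7.85), in epithelial mesendoderm-like cells of D8, and INHBB had 4 to 6 UMIs per day.

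**Figure D3:**
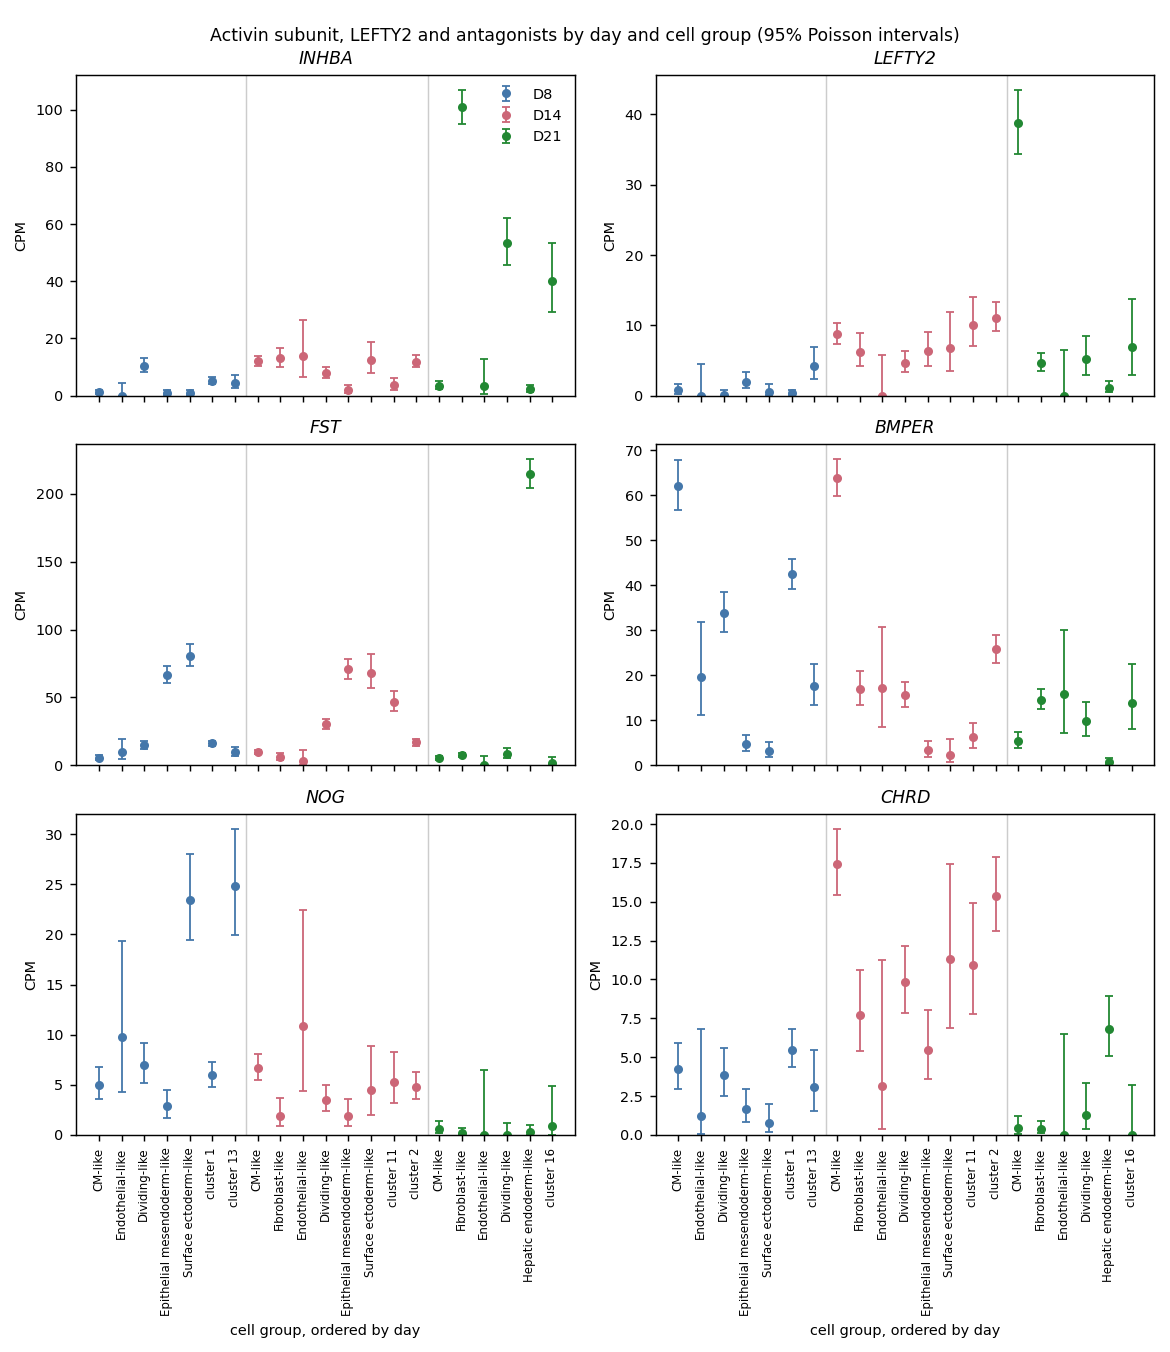
Levels (CPM, linear axis from 0) of INHBA, LEFTY2 and 4 antagonists in each cell group, ordered and coloured by day, with 95% Poisson intervals as bars. INHBA stands out in fibroblast-like cells of D21 (101 CPM), LEFTY2 in CM-like cells of D21 (38.7 CPM), FST in hepatic endoderm-like cells of D21 (215 CPM), and BMPER in CM-like cells of D8 and D14.

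At D8 and D14, BMPR1A was the most evenly spread of the type I receptors and TGFBR1 was highest in endothelial-like cells. BMPR1A, a main type I receptor for BMPs, was between 20.01 and 28.2 CPM in every group of D8 and between 23.8 and 47.4 CPM in every group of D14. At D21 it was at 42.6 CPM (38.0 to 47.6) in CM-like cells and 12.7 CPM (10.2 to 15.5) in hepatic endoderm-like cells. BMPR1B, its relative, reached at most 8.48 CPM (6.83 to 10.4), in cluster 2 of D14, and had 0 UMIs in CM-like cells of D21. ACVR1, which pairs with BMP ligands and type II receptors, was between 5.66 and 23.5 CPM in the groups of 50 or more cells. ACVR1B, the type I receptor of activin and Nodal, was at 17.1 CPM (14.4 to 20.2), 24.4 CPM (22.0 to 27.0) and 21.1 CPM (17.9 to 24.7) in CM-like cells, and at 38.0 CPM (25.8 to 54.0) in endothelial-like cells of D8, its highest group that day. TGFBR1, the type I receptor of TGF-beta, was at 45.4 CPM (31.9 to 62.5), 35.8 CPM (22.7 to 53.7) and 7.03 CPM (1.91 to 18.0) in endothelial-like cells. It was at 19.0 CPM (16.1 to 22.3), 12.9 CPM (11.2 to 14.9) and 5.47 CPM (3.91 to 7.45) in CM-like cells, and in fibroblast-like cells at 24.6 CPM (20.3 to 29.5) and 16.7 CPM (14.4 to 19.3).

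Among the type II receptors, endothelial-like cells led for both TGFBR2 and, at D8 and D14, BMPR2. TGFBR2, without which TGF-beta is not bound with high affinity, was highest in them on every day, with 65.0 CPM (48.7 to 85.0), 37.4 CPM (23.9 to 55.6) and 188 CPM (154 to 227). In CM-like cells it was at 1.49 CPM (0.770 to 2.60) and 2.81 CPM (2.03 to 3.79) at D8 and D14 and at 26.0 CPM (22.4 to 30.0) at D21. Fibroblast-like cells had 8.54 CPM (6.10 to 11.6) at D14 and 41.0 CPM (37.3 to 44.9) at D21. At D21 the endothelial markers in CM-like cells were at 1.06% of their endothelial-like level, and TGFBR2 was at 13.8% of its own. The lowest thinned share of cells with TGFBR2 at D21 was 5.56% (3.27 to 8.75), in hepatic endoderm-like cells, against 9.59% (7.25 to 12.4) in CM-like cells, with overlapping intervals (21.2% and 27.3% before thinning).

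BMPR2, the BMP type II receptor, was at 108 CPM (86.5 to 133) in endothelial-like cells of D8, above every other group. At D14 they had 82.5 CPM (61.8 to 108), next to 57.5 CPM (50.8 to 64.7) in fibroblast-like cells. In CM-like cells it was at 21.2 CPM (18.2 to 24.7), 45.1 CPM (41.8 to 48.6) and 57.7 CPM (52.4 to 63.5). ACVR2B, shared by activins and BMPs, was at 62.7 CPM (57.3 to 68.4), 70.3 CPM (66.2 to 74.7) and 25.0 CPM (21.5 to 28.9) in CM-like cells, and its level was lower at D21 than at D14 in each of the 4 classes present on both days. ACVR2A, the other activin type II receptor, was between 7.50 and 18.3 CPM in all groups of 50 or more cells except the endothelial-like cells of D14, which had 1.56 CPM (0.0394 to 8.68). TGFBR3, the co-receptor betaglycan, which presents TGF-beta and binds inhibin, was at 10.5 CPM (7.74 to 13.8) and 17.2 CPM (14.8 to 19.8) in fibroblast-like cells of D14 and D21, and at 4.52 CPM (3.11 to 6.34) in CM-like cells of D21.

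Among the antagonists, BAMBI, a membrane pseudoreceptor that lacks the kinase domain, was among the members that differed most between days. Over all cells it was at 150.4 CPM (147 to 154) at D8, 657 CPM (650.3 to 665) at D14 and 327 CPM (321 to 334) at D21. Its highest group was the fibroblast-like cells of D14, with 1233 CPM (1201 to 1265), and they had 515 CPM (502 to 529) at D21. CM-like cells had 181 CPM (172 to 191), 469 CPM (458 to 480.0) and 167 CPM (158 to 176). Endothelial-like cells were the lowest group of D14, with 131 CPM (104 to 162).

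BMPER and FST, both secreted, had different leading groups. BMPER, which binds BMPs in the matrix, was at 62.1 CPM (56.7 to 67.8) and 63.8 CPM (59.9 to 67.9) in CM-like cells of D8 and D14, the highest of each day, and at 5.47 CPM (3.91 to 7.45) in those of D21. CM-like cells held 64.3% of its UMIs at D14 and 15.2% at D21. FST, Follistatin, which binds activins and some BMPs, was highest in surface ectoderm-like and epithelial mesendoderm-like cells at D8, with 80.9 CPM (73.3 to 89.0) and 66.6 CPM (60.6 to 73.2), and at D14, with 68.3 CPM (56.7 to 81.6) and 70.6 CPM (63.3 to 78.6). At D21 it was at 215 CPM (204 to 225) in hepatic endoderm-like cells, which held 91.6% of its UMIs. In CM-like cells of D21 it was at 5.06 CPM (3.56 to 6.98), or 2.36% of that level, next to 2.65% for the hepatic markers. Fibroblast-like cells, which had INHBA at 101 CPM, had FST at 7.42 CPM (5.91 to 9.19). FSTL3, a relative of Follistatin, was at 8.57 CPM (6.66 to 10.8), 11.1 CPM (9.51 to 12.9) and 4.52 CPM (3.11 to 6.34) in CM-like cells.

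NOG and GREM1, which encode Noggin and Gremlin, were at their highest at D8. NOG was at 24.8 CPM (19.9 to 30.5) in cluster 13 and 23.4 CPM (19.4 to 28.0) in surface ectoderm-like cells of D8, and had 9 UMIs in all cells of D21. GREM1 was at 24.8 CPM (20.7 to 29.5) in surface ectoderm-like cells of D8, against 0.248 CPM (0.0301 to 0.897) in CM-like cells. CHRD, Chordin, was highest at D14, in CM-like cells with 17.5 CPM (15.4 to 19.7) and cluster 2 with 15.4 CPM (13.1 to 17.9), which did not differ beyond their intervals. It had 3 UMIs in CM-like cells of D21, and 51 of its 62 UMIs of that day were in hepatic endoderm-like cells.

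The target genes ID1, ID2 and ID3 encode inhibitors of basic helix-loop-helix factors and were counted deeply, with 8513 to 77203 UMIs per gene and day. Because all 3 were lower at D21 than at D14 and followed one another over the days, the 250 bases before their start sites are shown. They are RefSeq sequences of the GRCh38.p14 build, matched by symbol for all 3 genes, whereas the counts were made on hg19, and capitals mark the letters CAGAC, a SMAD-binding element, or GGCGCC, a GC-rich SMAD site, on either strand.

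ID1: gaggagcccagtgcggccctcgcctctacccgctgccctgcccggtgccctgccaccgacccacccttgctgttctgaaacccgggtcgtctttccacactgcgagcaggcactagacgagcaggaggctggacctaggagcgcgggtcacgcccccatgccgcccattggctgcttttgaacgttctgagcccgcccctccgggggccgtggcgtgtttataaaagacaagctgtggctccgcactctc
ID2: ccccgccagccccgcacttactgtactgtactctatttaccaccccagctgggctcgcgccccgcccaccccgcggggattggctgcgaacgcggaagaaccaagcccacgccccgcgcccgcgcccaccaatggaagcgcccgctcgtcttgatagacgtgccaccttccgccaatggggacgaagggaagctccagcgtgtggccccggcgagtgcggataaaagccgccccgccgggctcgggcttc
ID3: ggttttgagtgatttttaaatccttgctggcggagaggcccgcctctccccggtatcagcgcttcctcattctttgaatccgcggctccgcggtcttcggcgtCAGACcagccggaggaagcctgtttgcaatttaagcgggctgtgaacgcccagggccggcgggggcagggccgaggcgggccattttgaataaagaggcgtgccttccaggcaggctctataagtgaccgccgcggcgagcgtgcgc

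They lie at chr20:31605039-31605288 on the plus strand for ID1, chr2:8681806-8682055 on the plus strand for ID2 and chr1:23559502-23559751 on the minus strand for ID3. CAGAC was found once, in ID3, starting 147 bases before the start site, and GGCGCC was not found in these windows. Over 35116 promoter windows of the same length, 38.0% held CAGAC and 16.4% held GGCGCC, and neither motif holds the other. A match describes letters and says nothing of binding.

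Over all cells ID1 was at 1067 CPM (1058 to 1077), 1536 CPM (1526 to 1547) and 484 CPM (477 to 492). CM-like cells had 282 CPM (271 to 294), 820.2 CPM (806 to 835) and 214 CPM (203 to 224), the lowest level of all groups at D14 and at D21. At D8 only cluster 13, with 220.2 CPM (205 to 236), was below them. Endothelial-like cells had 3258 CPM (3135 to 3384), 2980 CPM (2848 to 3117) and 1542 CPM (1442 to 1648) and were the highest group of D8 and D21, while surface ectoderm-like cells led at D14 with 3230 CPM (3147 to 3315). In thinned cells of D21, ID1 was found in 44.7% (40.4 to 49.0) of CM-like and 91.9% (78.1 to 98.3) of endothelial-like cells (71.0% and 100% before thinning).

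ID3 was likewise lowest in CM-like cells at D14 and D21 and, at D8, in cluster 13. It was at 266 CPM (255 to 277), 639 CPM (626 to 651) and 204 CPM (194 to 214) in CM-like cells and at 1600 CPM (1515 to 1689), 1540 CPM (1445 to 1639) and 1375 CPM (1281 to 1475) in endothelial-like cells. Fibroblast-like cells had 1725 CPM (1687 to 1763) at D14, the highest of that day, and 789 CPM (773 to 806) at D21. For ID2, hepatic endoderm-like cells led at D21 and endothelial-like cells were not high. CM-like cells had 213 CPM (203 to 223), 481 CPM (470.3 to 492) and 183 CPM (173 to 193) of ID2, endothelial-like cells 266 CPM (232 to 304), 346 CPM (302 to 394) and 139 CPM (109.9 to 173), and hepatic endoderm-like cells 535 CPM (519 to 552).

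**Figure D4:**
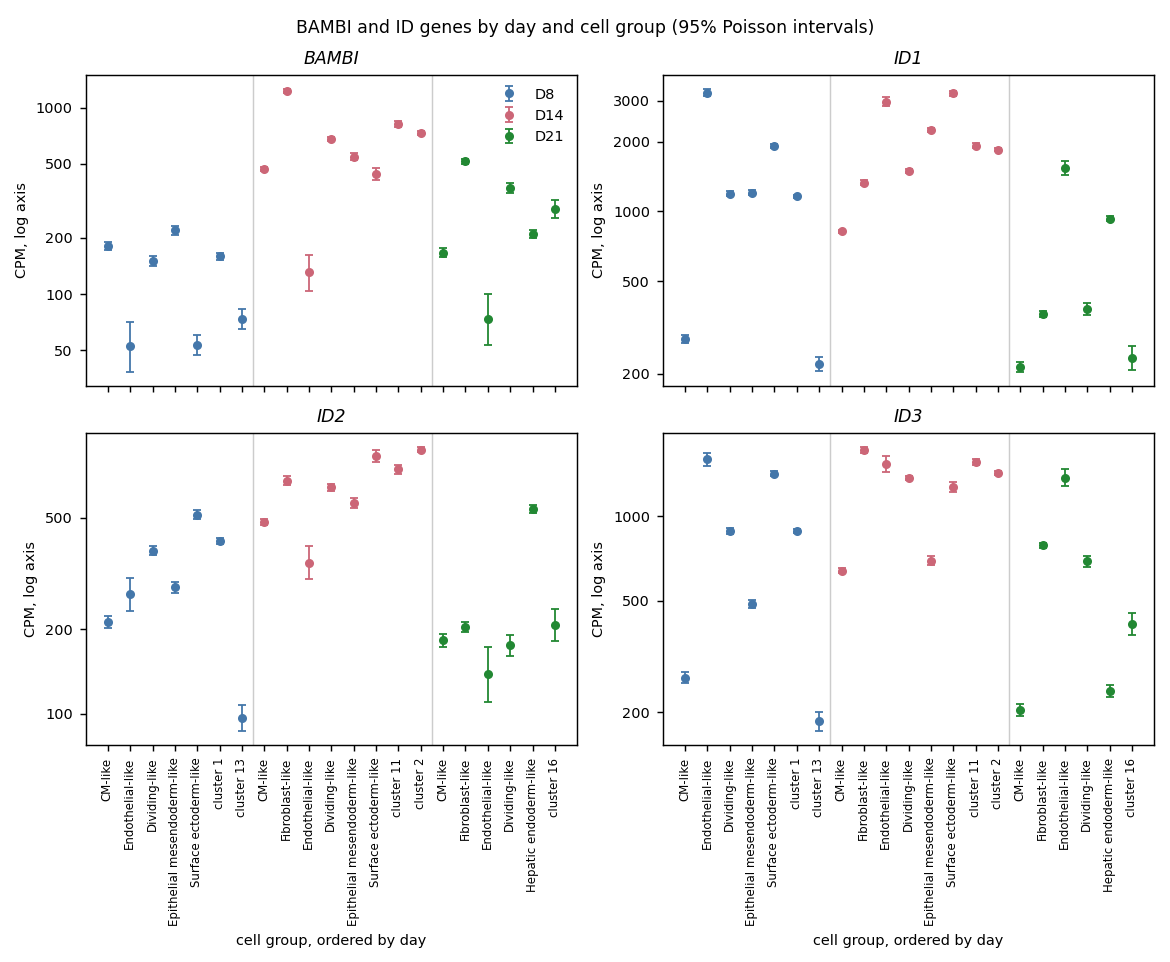
Levels (CPM, log axis) of BAMBI and the 3 ID genes in each cell group, ordered and coloured by day, with 95% Poisson intervals as bars. BAMBI peaks in fibroblast-like cells of D14 (1233 CPM), ID1 and ID3 are low in CM-like cells of each day and in cluster 13 of D8, and most groups of D14 lie above those of D21.

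Changes between days were first taken over all cells. A gene was counted as higher or lower when it differed by 2-fold or more, among genes at 10 CPM or more on 1 of the days with 20 UMIs in sum. From D8 to D14, 6 of the 23 members that could be counted were higher and none was lower, where 8.95% of all 9105 genes were higher and 1.63% were lower. The 6 were BMP2, GDF11, TGFB2, CHRD, BAMBI and FSTL3. BAMBI had the largest log2 ratio of these, 2.13 (2.09 to 2.17). GREM1 was below the 10 CPM asked for and had a log2 ratio of -2.13 (-2.51 to -1.77). The median log2 ratio of the 23 members was 0.62, against 0.08 over all genes. Sums over all cells mix the level in each group with the share of each group, and these cannot be told apart in such a sum.

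From D14 to D21, 3 of 27 members were higher over all cells and 9 were lower, where 5.8% of all 9333 genes were higher and 10.1% were lower. Higher were INHBA, TGFBR2 and FST, with log2 ratios of 2.23 (2.08 to 2.38), 2.60 (2.41 to 2.80) and 1.11 (1.00 to 1.21). Lower were BMP2, TGFB2, ACVR2B, CHRD, BAMBI, BMPER and the 3 ID genes, with log2 ratios from -2.67 for CHRD to -1.01 for BAMBI. The median of the members was -0.34, against -0.20 over all genes, and scaling by the median of ratios removes this shift of -0.20 from every value. Both steps use the D14 library, so they are not independent of each other. For FST, 91.6% of the UMIs of D21 were in hepatic endoderm-like cells. With a mitochondrial limit of 5%, under which no hepatic endoderm-like cluster was named, its log2 ratio was -1.41.

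Within CM-like cells, the step to D14 had 9 of 23 members higher and none lower, where 10.6% of all 9086 genes were higher and 2.23% were lower. The 9 were BMP2, INHBA, TGFB2, BMPR2, CHRD, BAMBI and the 3 ID genes. BMP2 had a log2 ratio of 1.36 (1.25 to 1.48), TGFB2 of 1.30 (1.16 to 1.45) and BAMBI of 1.37 (1.29 to 1.45). For the ID genes the log2 ratio was 1.54 (1.47 to 1.6) for ID1, 1.18 (1.10 to 1.25) for ID2 and 1.27 (1.2 to 1.33) for ID3. BMP7 and BMPER, at 0.15 (0.02 to 0.28) and 0.04 (-0.12 to 0.20), were level. The median of the 23 members was 0.51 and that of all genes 0.06. The CM-like cells came from a different cluster on each day, namely cluster 4 for D8, cluster 0 for D14, and 5 together with 17 for D21. With a clustering resolution of 1.2, which left 686 CM-like cells at D14, 4 members were higher, namely BMP2, TGFB2, CHRD and BAMBI. BMPR2, ID1, ID2 and ID3 were then at 0.98, 1.00, 0.97 and 0.84, and INHBA, at 8.24 CPM, was below the level asked for.

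The step from D14 to D21 in CM-like cells had 15 of 25 members lower and 4 higher, where 15.2% of all 9162 genes were lower and 5.11% were higher. Lower were 3 of the BMP and GDF ligands (BMP2, BMP4 and GDF11), INHBA, TGFB1, TGFB2, the receptors TGFBR1 and ACVR2B, the antagonists CHRD, BAMBI, BMPER and FSTL3, and the 3 ID genes. The log2 ratio was -2.90 (-3.10 to -2.70) for BMP2, -2.92 (-3.50 to -2.40) for BMP4 and -2.17 (-2.37 to -1.98) for TGFB2. CHRD had the lowest, -5.41 (-7.70 to -3.85), from 267 and 3 UMIs, and BMPER had -3.54 (-4.04 to -3.09). ID1, ID2 and ID3 had -1.94 (-2.02 to -1.87), -1.40 (-1.48 to -1.31) and -1.65 (-1.73 to -1.57). Higher were BMP5 with 1.03 (0.91 to 1.14), GDF15 with 1.17 (0.91 to 1.44), LEFTY2 with 2.14 (1.84 to 2.45) and TGFBR2 with 3.21 (2.73 to 3.72). BMP7, BMPR1A and BMPR2 were within 2-fold, at -0.29 (-0.43 to -0.15), 0.29 (0.08 to 0.49) and 0.36 (0.18 to 0.53). The median of the members was -1.39, against -0.18 over all genes.

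The median mitochondrial share of CM-like cells was 2.86% at D8, 4.98% at D14 and 8.41% at D21, and its part in these differences was not tested. Under a mitochondrial limit of 20%, CM-like cells numbered 1261 at D14 and 1470 at D21, against 1161 and 542 under the limit of 10%. The CM-like levels of D21 given here thus rest on a part of these cells. With a mitochondrial limit of 5% there were 298 CM-like cells at D14 and 36 at D21. Under it 10 members were lower and 3 higher, and BMP4, at 0.49, was no longer lower. The 8 hepatic markers were at 121 CPM in CM-like cells of D14 and at 3670 CPM in those of D21. GDF15 was at -0.48 when cells of 1000 to 9000 genes were kept, with the hepatic markers at 1725 CPM at D21. It was at 0.07 with a limit of 20%, with them at 1523 CPM, and at 4.11 with a limit of 5%, with them at 6279 CPM. Their part in the GDF15 ratio was not tested. Without cluster 17, the 50 CM-like cells of D21 led by ANKRD45, 15 members were lower and 4 higher. That cluster held INHBA at 18.5 CPM and FST at 28.8 CPM, and the other CM-like cells of D21 held them at 2.35 and 3.37 CPM.

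**Figure D5:**
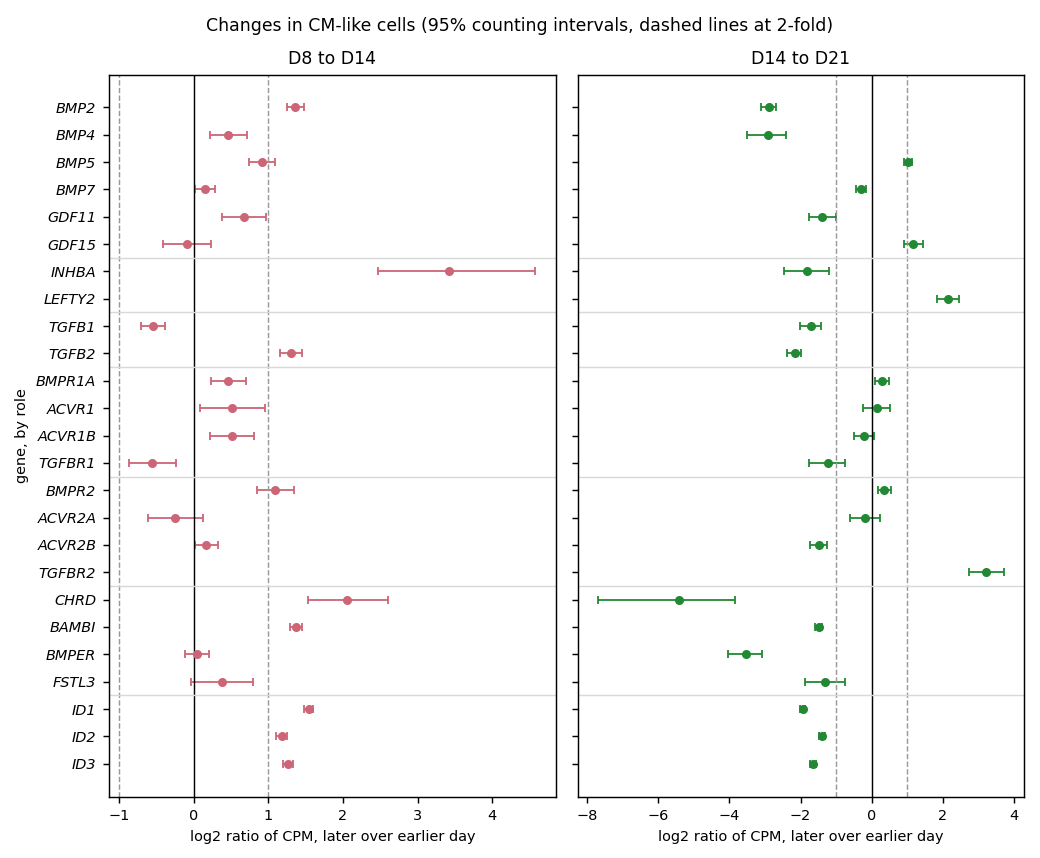
Log2 ratio of levels (CPM) among CM-like cells, D14 over D8 (left) and D21 over D14 (right), for each member that could be counted, by role, with 95% counting intervals as bars and dashed lines at 2-fold. The D14 library is in both panels. On the right 15 members lie left of the lower dashed line, and BMP5, GDF15, LEFTY2 and TGFBR2 lie right of the upper one.

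In fibroblast-like cells, 4 of 23 members were higher at D21 than at D14 and 7 were lower, where 4.89% of all 8862 genes were higher and 9.73% were lower. Higher were GDF10, INHBA, TGFB3 and TGFBR2, with log2 ratios of 5.36 (3.49 to 8.41), 2.95 (2.58 to 3.35), 1.74 (1.03 to 2.54) and 2.26 (1.80 to 2.77). Lower were BMP2, TGFB2, ACVR2B, BAMBI and the 3 ID genes. BMP2 had -2.11 (-2.40 to -1.83), ACVR2B -1.68 (-2.00 to -1.37) and ID1 -1.88 (-1.94 to -1.82). BMP4, at -0.12 (-0.23 to -0.01), and BMPR2, at 0.27 (0.07 to 0.48), were within 2-fold. The median of the members was -0.21 and that of all genes -0.19. The fibroblast-like cells were mostly cluster 9 at D14, led by MGP with 5 of 8 fibroblast markers, and cluster 3 at D21, and the 2 clusters shared MGP and LUM among their 10 leading genes.

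CM-like cells were also set against the other cells of the same library. At D8, 5 of 20 members were higher in CM-like cells and 4 were lower, where 6.23% of all 8733 genes were higher and 5.89% were lower. The higher ones were BMP2, BMP5, BMP7, GDF11 and BMPER, with log2 ratios of 1.72 (1.58 to 1.86), 1.05 (0.86 to 1.23), 1.39 (1.26 to 1.53), 1.61 (1.28 to 1.93) and 1.23 (1.08 to 1.39). BMP4, FST, ID1 and ID3 were lower, and ID1 had -2.12 (-2.19 to -2.06).

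At D14 the higher members were BMP2, BMP5, BMP7 and BMPER, 4 of 24, where 9.79% of all 9443 genes were higher. Lower were BMP4, GDF15, FST, ID1 and ID3, 5 of 24, where 7.04% of all genes were lower. BMP2 had 2.02 (1.94 to 2.10) and BMP4 -1.71 (-1.84 to -1.57).

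At D21, BMP2, BMP5, BMP7 and LEFTY2 were higher, 4 of 23, where 12.7% of all 8965 genes were higher. The other cells of D21 included the 58 cells of cluster 16, in which the cardiomyocyte markers summed to 27980 CPM. The largest were BMP7 with 3.42 (3.17 to 3.67) and LEFTY2 with 3.44 (3.09 to 3.81). Lower were 11 of 23, where 15.7% of all genes were lower. These were BMP4, GDF10, GDF15, INHBA, TGFB1, TGFBR1, TGFBR3, BAMBI, FST, ID1 and ID3, and BMP4 had -4.82 (-5.38 to -4.31) and INHBA -4.12 (-4.75 to -3.55). For GDF15 only hepatic endoderm-like cells, with 224.7 CPM, were above the 34.2 CPM of CM-like cells, and endothelial-like cells were next with 26.35 CPM. FST was at 215 CPM in hepatic endoderm-like cells of D21 and at 5.06 CPM in CM-like cells. Dividing and fibroblast-like cells of D21 were little above that, with 8.48 and 7.42 CPM. Cluster 16, with 1.74 CPM, and endothelial-like cells, with 0 CPM, were below it. Thus BMP2, BMP5 and BMP7 were higher in CM-like cells than in the sum of the other cells in each of the 3 libraries. BMP4, FST, ID1 and ID3 were lower than in that sum, but FST at D21 was not lower than in every other group.

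The other genes of the pathway were taken from a second list of 56, of which 39 reached 10 CPM in a group of 50 or more cells. From D8 to D14, 11 of 30 that could be counted were higher over all cells and none was lower, beside 8.95% and 1.63% of all genes. ENG, the endothelial and mesenchymal co-receptor endoglin, was at 2.48 CPM (2.05 to 2.98) over all cells of D8 and 127 CPM (123 to 129.6) over those of D14. Its 515 CPM (495 to 536) in fibroblast-like cells of D14 was its highest level there, and it was among the 10 leading genes of their cluster. Also higher were SMAD9, a BMP-receptor SMAD, SMAD6, an inhibitory SMAD that BMP induces, PMEPA1, an inhibitor that TGF-beta induces, and the target genes ID4, TGFBI and TBX2. SMAD6 was at 10.1 CPM (9.22 to 11.1), 30.3 CPM (28.8 to 31.8) and 19.3 CPM (17.8 to 20.9) over all cells of D8, D14 and D21.

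From D14 to D21, 2 of 31 were higher over all cells, INHBE and TGFBI, which is near the 5.8% of all genes. Lower were 9 of 31, beside 10.1% of all genes, among them SMAD9, THBS1, ID4, MSX2 and HEY1. ID4, the remaining ID gene, was at 59.7 CPM (57.6 to 62.0), 173 CPM (169 to 177) and, from 1623 UMIs, 52.5 CPM, and MSX2, a BMP target in cushion and limb, was at 28.1 CPM (26.6 to 29.6), 54.7 CPM (52.6 to 56.8) and 7.31 CPM (6.39 to 8.33). INHBE, an activin subunit of liver, was at 56.2 CPM (50.9 to 61.8) in hepatic endoderm-like cells. INHA, the inhibin subunit, was highest in CM-like cells of D14, with 54.6 CPM (51.0 to 58.4). INHA was at 23.8 CPM (20.4 to 27.6) in those of D21. Within CM-like cells 12 of 28 were higher and none was lower from D8 to D14, beside 10.6% and 2.23% of all genes. From D14 to D21 none of 29 was higher and 7 were lower in them, beside 5.11% and 15.2% of all genes. In fibroblast-like cells 3 of 33 were higher and 8 were lower from D14 to D21, beside 4.89% and 9.73% of all genes.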

How the data were processed

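Single-cell transcripts were measured in 3 Chromium 3' libraries of CCOs, 1 each for D8, D14 and D21. According to the submitters' processing notes, the reads were processed with Cell Ranger (version not given in the sources used here) against hg19, and Seurat 3.2.1 was used downstream. The authors deposited 1 merged table of raw UMI counts, in whole numbers, for 32738 genes and 17327 barcodes, and the ending of each barcode gave its day.

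Cells with 2000 to 7500 genes and under 10% mitochondrial UMIs were kept and clustered in Seurat 5.3.0 (R 4.3.3) by 20 principal components of 2000 variable genes, without the members and pathway genes, at a resolution of 0.8 and with no integration of the days. This gave 8188 cells in 18 clusters, of which 13 were named from lists of markers by the rule that 3 or more markers were 2-fold higher than elsewhere in that day's library and led the next class by 2. Of the clusters, 14 drew 90% or more of their cells from 1 day. Scrublet, in scanpy 1.11.5, called 1, 1 and 7 doublets, too few to have worked, so doublets stayed in.

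UMIs were summed per day and class with Python 3.11.15 and scaled to CPM, and scipy 1.17.1 gave the exact Poisson intervals. Shares of cells with a UMI were taken after thinning each cell to 4000 UMIs, with exact Clopper-Pearson 95% intervals. Kept cells had 4007 to 95021 UMIs, and a count of 0 was taken to allow up to 3 counts. Intervals of log2 ratios were exact and rest on how the UMIs of both sides were divided. The members, the marker lists and the list of other pathway genes were chosen with earlier results of these data known. All members that could be counted were eligible to be named, and other pathway genes when they reached 50 CPM in a group of 50 or more cells. The scripts were tested on simulated data. Alternatives were other limits on cells, resolutions, variable genes, scalings and filters. Protein sequences were not used here.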

Additional observations from a re-analysis of the deposited data

Results flagged for a closer look

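GDF15 and INHBA differed from D14 to D21 in opposite directions in different classes, and with 1 library per day the difference between classes was not tested. For GDF15 the log2 ratio was 1.17 in CM-like cells, -1.53 in dividing cells and -1.24 in endothelial-like cells. For INHBA it was -1.81 in CM-like cells, 2.95 in fibroblast-like cells and 2.77 in dividing cells.

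Barcodes that the limits on genes and mitochondrial share left out held some members at 10 CPM or more and 2-fold or more above all kept cells of that day. Barcodes of D8 with 2000 genes or fewer held CHRD at 10.6 CPM. The 204 barcodes of D14 with a mitochondrial share of 10% or more held BMP2 at 278 CPM, NOG at 11.0 CPM, CHRD at 25.7 CPM and BMPER at 77.2 CPM. The 1982 such barcodes of D21 held BMP5 at 141 CPM, BMP7 at 68.4 CPM and LEFTY2 at 31.8 CPM. In the kept CM-like cells of D14, BMP2, NOG, CHRD and BMPER were at 231, 6.67, 17.5 and 63.8 CPM, and in those of D21 BMP5, BMP7 and LEFTY2 were at 169, 76.5 and 38.7 CPM. Under a mitochondrial limit of 20%, CM-like cells of D21 numbered 1470 and hepatic endoderm-like cells 461, against 542 and 306 under the limit of 10%. The classes of the barcodes left out were not counted on their own.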

How the results depend on the processing

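No paired analysis was possible because each day is 1 library and the labels give no replicate numbers, and for the same reason no replicate could be left out. Counts of members differing by 2-fold or more stayed within 1.5 times the value given above under most alternatives. Without the filter on low genes, which adds genes of few UMIs, 11 members were higher and 2 lower from D8 to D14 over all cells, 5 were higher and 15 lower from D14 to D21 over all cells, and 1 was lower from D8 to D14 in CM-like cells. With a mitochondrial limit of 5%, which left 36 CM-like cells at D21, 5 members were higher from D14 to D21 over all cells and 1 was lower from D8 to D14 in CM-like cells, and the cause was not tested. With a resolution of 1.2, which left 686 CM-like cells at D14, 4 members were higher from D8 to D14 in CM-like cells. Of the members counted as higher or lower, all kept their direction under the alternatives run except FST from D14 to D21 over all cells, at -1.41 with a mitochondrial limit of 5%, and in CM-like cells BMP4, at 0.49 with that limit, and GDF15, at -0.48 with 1000 to 9000 genes per cell, and the cause was not tested. Of the other log2 ratios over all alternatives, 613 stayed 2-fold or within their counting interval and 91 did not, of which 41 came with the 5% limit and 21 with median-of-ratios scaling. Of the levels in leading groups, 184 stayed within their counting interval and 45 did not. Shares moved beyond theirs for 37 of 39 members without thinning and for 36 of 39 when 2 UMIs were asked for. Between 32 and 35 members reached the level asked for, the highest with 5 CPM in place of 10. Depth limits the genes of few UMIs, such as CHRD with 3 UMIs in CM-like cells of D21.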
